A study of Mus musculus with 20 samples.

Results

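The difference between the effect of Fmr1 loss in male hippocampus and its effect in female hippocampus was measured for 12679 autosomal genes. For each gene it is (M-KO minus M-C57) minus (F-KO minus F-C57), in log2(FPKM + 1), where FPKM are fragments scaled to gene length and library size. A negative value means that the gene was higher in KO to a lesser degree, or lower to a greater degree, in males than in females. All 20 libraries of the series entered the contrast. Genes on chromosomes 1 to 19 entered if 5 or more libraries held 0.5 FPKM or more. This held for 12679 of 12759 autosomal genes listed and for 13174 of all 13256 listed genes. The 460 X, 7 Y, 13 mitochondrial and 15 scaffold genes past that filter were set apart.

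RNA was sequenced from mouse hippocampus in 4 groups of 5 libraries. M-KO is male with the Fmr1 mutation, M-C57 is male with the genotype WT, F-KO is female with the mutation and F-C57 is female with the genotype WT. The sample titles write KO where the genotype field says Fmr1 knockdown, and C57 is the titles' word for WT. Titles of all 4 groups also hold the label Con before the replicate number. The sources used here state neither age nor allele. They do not say whether the 5 libraries of a group came from separate animals, so a p-value reflects the spread between libraries, which may be technical.

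Fmr1 lies on the X chromosome and encodes FMRP, a protein that binds mRNAs in neurons, travels with them into dendrites and restrains their translation at synapses. In humans its loss causes fragile X syndrome, which is usually milder in females because they carry another X chromosome. The hippocampus holds the dentate gyrus and the CA1, CA2 and CA3 fields, where loss of FMRP in mice is known to alter synaptic plasticity and dendritic spines.

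The libraries matched their labels. In all 10 libraries labelled KO Fmr1 was below all 10 labelled C57, and it fell by 1.44 in males and by 1.43 in females on the log2 scale (exact two-sided permutation p = 0.0079 in each sex, n = 5 per group, the smallest this design can give). Genes of the Y chromosome were at male levels in all 10 male libraries and at or near 0 in all 10 female libraries. The number of listed genes at 0 ran from 18 to 28 per library, and the sequencing depth is unknown because FPKM are not counts. The choroid plexus gene Ttr exceeded 500 FPKM in M-KO replicate 2, F-KO replicates 4 and 5 and F-C57 replicate 4. The pituitary hormone gene Prl exceeded 4 FPKM in F-KO replicates 2, 3 and 4.

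In 6 of the 12679 autosomal genes (0.0473%) the effect of Fmr1 loss differed between the sexes at a Benjamini-Hochberg adjusted p under 0.05 (limma), and in all 6 the male minus female value was below 0. The other direction held 0 genes at that threshold and 568 at an unadjusted p under 0.05 (4.48%), against 707 below 0 (5.58%). The 6 genes are of separate kinds. The skeletal muscle genes Ckm, Atp2a1 and Myh4 were lower in M-KO than in M-C57 and near 0 in both female groups. The transcription factor gene Foxo6 was higher in F-KO than in F-C57, and its male groups overlapped. Fbxl14 and Emc1 were higher in F-KO than in F-C57, while their M-KO means were below those of M-C57 by less than the male test's threshold required. The plot of male against female effects shows the muscle genes below the centre and Foxo6 at the right. No X, Y, mitochondrial or scaffold gene passed.

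**Figure D1:**
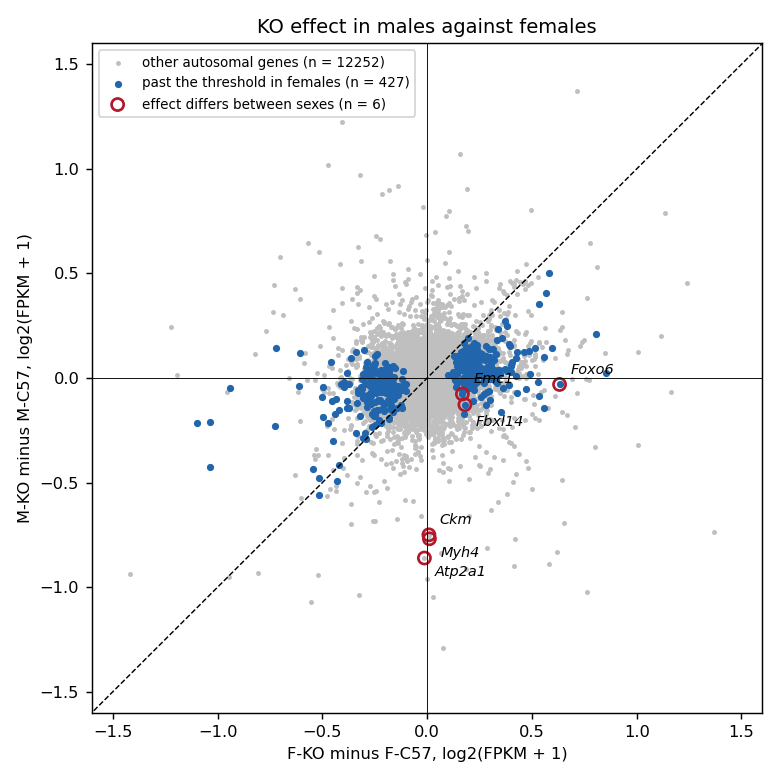
Effect of Fmr1 loss in each autosomal gene, in males (vertical axis, M-KO minus M-C57) against females (horizontal axis, F-KO minus F-C57), in log2(FPKM + 1). Blue points are the 427 genes past the threshold in females, red rings the 6 genes whose effect differed between the sexes, and the dashed line marks equal effects (5 genes lie outside the axes). Ckm, Atp2a1 and Myh4 sit near 0 in females and between -0.86 and -0.75 in males, and Foxo6 sits at 0.63 in females and -0.03 in males.

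The muscle genes gave the 3 smallest p-values. All 3 had group means below 1 FPKM and fell outside the rule for named genes, so they were chosen after their values were seen. They met the filter of 0.5 FPKM through the 5 M-C57 libraries alone, and with no filter on low values they passed too (limma, adjusted p between 0.000806 and 0.00195). That fit covers only the 13256 listed genes, so a selection of genes made before deposit, if any, stays in it. Ckm (ENSMUSG00000030399.2, chr7:19404776-19422841, plus strand, mm10) encodes the creatine kinase of muscle, which buffers ATP in contracting fibres. It stood at 0, 0, 0, 0 and 0 FPKM in M-KO, against 1.05, 0.556, 0.51, 0.819 and 0.535 FPKM in M-C57. In females it was at 0.029, 0, 0, 0 and 0 FPKM in F-KO, against 0, 0, 0, 0 and 0 FPKM in F-C57. Every M-C57 library was thus above every library of the other groups, in which 14 of 15 values were listed at 0. The male minus female difference was -0.76 ± 0.09 (SE; adjusted p = 0.000761, limma).

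Atp2a1 (ENSMUSG00000030730.12, chr7:126445858-126463108, minus strand) encodes SERCA1, the calcium pump of fast muscle fibres. It stood at 0.0354, 0.067, 0.0357, 0.0738 and 0.0285 FPKM in M-KO, against 0.707, 1.09, 0.781, 1.36 and 0.664 FPKM in M-C57. Its female values were 0, 0, 0, 0.102 and 0.0517 FPKM in F-KO, against 0, 0.0692, 0.0725, 0.0345 and 0.0227 FPKM in F-C57. The M-C57 libraries again did not overlap any other, and the difference was -0.85 ± 0.10 (SE; adjusted p = 0.000761). Myh4 (ENSMUSG00000057003.12, chr11:67238029-67260446, plus strand), the myosin heavy chain of the fastest mouse fibres, stood at 0.094, 0.0657, 0.116, 0.0855 and 0.0892 FPKM in M-KO, against 1.26, 1.03, 0.505, 0.798 and 0.773 FPKM in M-C57. Female libraries had 0.13, 0.095, 0.0497, 0.0984 and 0.0599 FPKM in F-KO, against 0.0863, 0.103, 0.084, 0.0929 and 0.026 FPKM in F-C57. Its lowest M-C57 value was above the highest value of each other group, and the difference was -0.78 ± 0.10 (SE; adjusted p = 0.00185).

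The RefSeq promoters of these 3 genes (250 bases before the start site to 50 after it, build GRCm38.p6) are printed because the genes moved together. Capitals mark matches on either strand to the E-box CAGCTG, a motif bound by myogenic factors, and to the TATA box TATAAA.
Ckm: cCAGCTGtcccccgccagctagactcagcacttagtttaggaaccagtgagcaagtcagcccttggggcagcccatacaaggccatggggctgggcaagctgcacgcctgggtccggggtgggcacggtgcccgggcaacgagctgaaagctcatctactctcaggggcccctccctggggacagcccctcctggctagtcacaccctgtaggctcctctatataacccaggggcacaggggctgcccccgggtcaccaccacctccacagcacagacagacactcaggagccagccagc
Atp2a1: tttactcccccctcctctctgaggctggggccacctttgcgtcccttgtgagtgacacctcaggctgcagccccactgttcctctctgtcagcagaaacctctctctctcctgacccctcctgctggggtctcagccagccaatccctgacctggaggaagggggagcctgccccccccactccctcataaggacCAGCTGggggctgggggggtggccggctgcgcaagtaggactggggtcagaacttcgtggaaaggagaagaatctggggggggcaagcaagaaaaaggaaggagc
Myh4: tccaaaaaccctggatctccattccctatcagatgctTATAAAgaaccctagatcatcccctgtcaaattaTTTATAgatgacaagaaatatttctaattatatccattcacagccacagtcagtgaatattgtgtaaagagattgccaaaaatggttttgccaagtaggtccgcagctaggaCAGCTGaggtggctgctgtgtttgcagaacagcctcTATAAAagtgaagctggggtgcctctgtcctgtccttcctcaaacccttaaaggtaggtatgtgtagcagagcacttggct
The windows are chr7:19410844-19411143, plus strand for Ckm, chr7:126463024-126463323, minus strand for Atp2a1 and chr11:67237562-67237861, plus strand for Myh4. The E-box lies 249 bases before the start of Ckm, 55 before that of Atp2a1 and 67 before that of Myh4. The letters CAGCTG occur in 16.3% of 32851 RefSeq mouse promoters of this length. Myh4 has TATAAA at 213, 179 and 31 bases before its start, a motif in 13.6% of promoters. A match describes the letters only. The RefSeq starts of Ckm and Atp2a1 lie inside the longer gene spans of the deposited tables. The whole Myh4 window lies before the deposited span of that gene.

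Of 16 skeletal muscle markers, 9 were listed in the tables and 7 passed the expression filter. Since Ckm, Atp2a1 and Myh4 passed it through M-C57 alone, no count or median over the 7 is given. Acta1, the actin of skeletal muscle, stood at 3.51, 3.28, 2.85, 2.91 and 3.22 FPKM in M-KO, against 5.41, 4.58, 3.27, 4.3 and 5.5 FPKM in M-C57. Among females it measured 2.69, 3.31, 3.59, 3.45 and 3.29 FPKM in F-KO, against 3.22, 2.87, 2.61, 2.62 and 2.79 FPKM in F-C57. The male groups met at the single value of 3.27 FPKM in M-C57 replicate 3, and the difference of -0.58 ± 0.13 did not pass (SE; adjusted p = 0.196). Tnnc2, the calcium-binding troponin subunit of fast fibres, was under the filter and stood at 0.102, 0.0872, 0.0943, 0 and 0 FPKM in M-KO, against 1.28, 0.827, 0.63, 1.06 and 0.39 FPKM in M-C57. It was at 0.106, 0.122, 0, 0.123 and 0.113 FPKM in F-KO, against 0, 0, 0, 0 and 0 FPKM in F-C57. In the fit of all listed genes, with no filter on low values, its difference was -0.91 (limma, adjusted p = 0.00404). A selection made before deposit, if any, stays in that fit too. Parvalbumin (Pvalb), which hippocampal interneurons also make, was in the list and at 35.2 FPKM on average in M-C57. Without it the sum of the 8 other listed markers ran from 4.05 to 4.78 FPKM in M-KO and 7.72 to 12.3 in M-C57. In females the sum ran from 3.96 to 5.48 FPKM in F-KO and 3.57 to 4.73 in F-C57. It includes Ckm, Atp2a1, Myh4, Acta1 and Tnnc2, whose values are given above. The higher sum in M-C57 is therefore partly theirs and no separate result for the list. The part of other tissue in the dissected samples was not tested. In bulk tissue, fewer cells of a type and less RNA per cell cannot be told apart.

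Foxo6 (ENSMUSG00000052135.8, chr4:120267079-120287349, minus strand) encodes a forkhead transcription factor of the FoxO family that in mice is enriched in the hippocampus and needed for memory consolidation. It stood at 4.99, 4.84, 5.05, 5.61 and 5.25 FPKM in M-KO, against 4.61, 5.01, 6.02, 5.6 and 5.24 FPKM in M-C57. The female groups stood at 8.11, 7.26, 7.23, 8.41 and 9.26 FPKM in F-KO, against 5.18, 5.24, 4.34, 4.02 and 5.47 FPKM in F-C57. The male groups overlapped, while the 5 F-KO libraries were all above the other 15. The effect was -0.03 in males (adjusted p = 0.953) and 0.63 in females (adjusted p = 0.000563), and the difference was -0.66 ± 0.11 (SE; 95% interval -0.89 to -0.43; adjusted p = 0.0268). Its family members Foxo1 and Foxo3 did not pass. Their differences were 0.03 (95% interval -0.13 to 0.20) for Foxo1 and -0.09 (-0.24 to 0.07) for Foxo3. The Foxo6 transcript has a GC content of 69.1%, against a median of 49.9% over the autosomal genes, and the difference became -0.53 (adjusted p = 0.194) after a smooth trend on GC content was removed from each library. The difference also missed the threshold without the 4 high-Ttr libraries (-0.51, adjusted p = 0.197) and in 10 of the 20 fits that left out a single library.

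**Figure D2:**
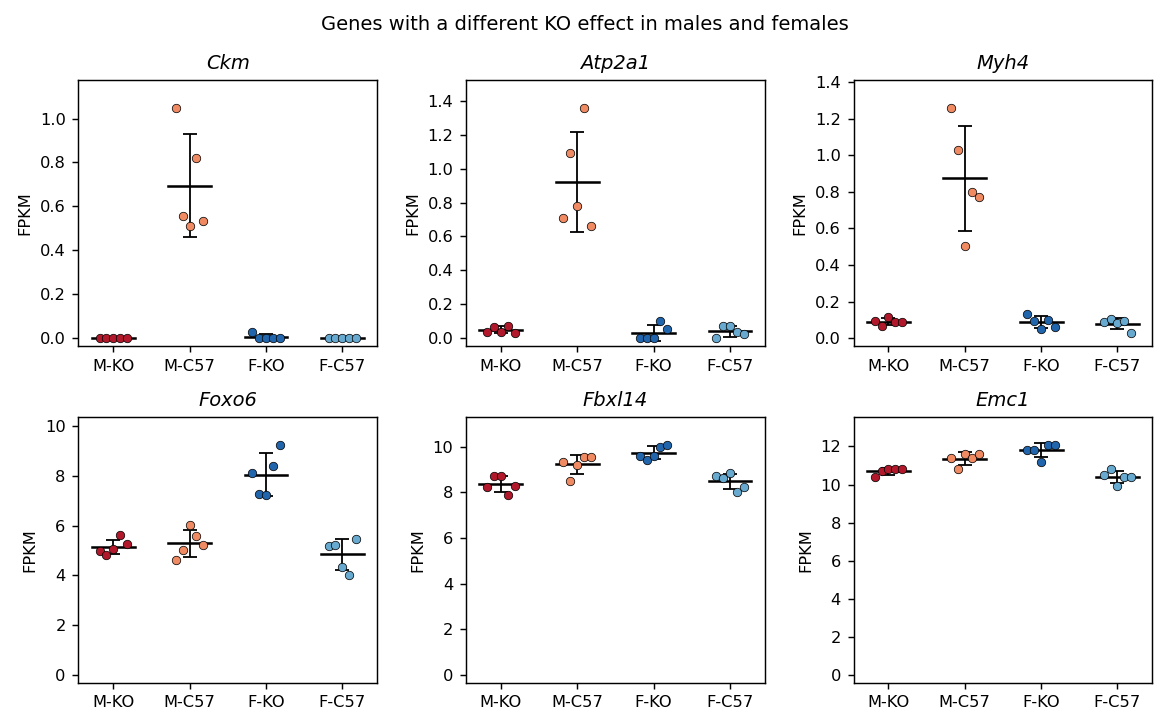
FPKM per library of the 6 genes whose effect of Fmr1 loss differed between the sexes, by group (5 points each, with the mean as a line and the SD as a bar). Ckm, Atp2a1 and Myh4 stand at 0.505 FPKM or more in each M-C57 library and at 0.130 or less elsewhere, and Foxo6 is highest in the 5 F-KO libraries.

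Fbxl14 (ENSMUSG00000030019.6, chr6:119479668-119482630, plus strand) encodes an F-box protein that picks substrates for a ubiquitin ligase. It stood at 8.22, 8.7, 8.71, 7.91 and 8.3 FPKM in M-KO, against 9.34, 8.52, 9.2, 9.54 and 9.57 FPKM in M-C57. In females it was at 9.6, 9.42, 9.58, 10 and 10.1 FPKM in F-KO, against 8.71, 8.62, 8.84, 8.04 and 8.25 FPKM in F-C57. The male groups overlapped in part and the female groups did not, with F-KO above F-C57. The effect was -0.13 in males (adjusted p = 0.287) and 0.18 in females (adjusted p = 0.0167), and the difference of -0.31 ± 0.05 passed (SE; adjusted p = 0.0436). On the opposite strand the annotation places Wnt5b over the gene, and the sources used here do not say whether counting used strand.

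Emc1 (ENSMUSG00000078517.12, chr4:139352587-139378730, plus strand) encodes a subunit of the complex that inserts membrane proteins into the endoplasmic reticulum. It stood at 10.4, 10.7, 10.8, 10.8 and 10.8 FPKM in M-KO, against 11.4, 10.8, 11.6, 11.4 and 11.6 FPKM in M-C57. Its female values were 11.8, 11.8, 11.2, 12.1 and 12.1 FPKM in F-KO, against 10.5, 10.8, 9.9, 10.4 and 10.4 FPKM in F-C57. The male groups met at 10.8 FPKM, and the female groups did not overlap. The effect was -0.08 in males (adjusted p = 0.487) and 0.17 in females (adjusted p = 0.0121), and the difference was -0.24 ± 0.04 (SE; adjusted p = 0.0493). Emc1 overlaps Ubr4 on the same strand, so reads of the shared stretch are uncertain. Fbxl14 passed in 6 of 34 alternative fits and so did Emc1, and of the fits without a single library 1 of 20 kept the call of Fbxl14 and 2 of 20 that of Emc1.

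Below the threshold, the other 5 genes with the smallest p and a negative difference were Dynll2, Pcdhac1, Cyb561, Hspb1 and Hexim1. Dynll2, a dynein light chain that also binds postsynaptic scaffolds, stood at 58.7, 57.4, 56.8, 57.8 and 61.1 FPKM in M-KO, against 64.3, 65.4, 58.5, 73.1 and 68.6 FPKM in M-C57. Female libraries had 74.1, 76.4, 80.5, 83.2 and 77.3 FPKM in F-KO, against 72.4, 71, 66.4, 69.6 and 66.5 FPKM in F-C57. The KO libraries were the lowest in males, overlapping at M-C57 replicate 3, and the highest in females without overlap (difference -0.35 ± 0.07, SE; adjusted p = 0.0827). Without M-C57 replicate 3 the difference was -0.39 and passed.

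Pcdhac1, a clustered alpha protocadherin of neuronal surfaces, averaged 0.854 ± 0.15 FPKM in M-KO, 1.07 ± 0.1 in M-C57, 1.08 ± 0.175 in F-KO and 0.634 ± 0.153 in F-C57 (SD, n = 5 each). Its difference was -0.51 ± 0.10 (SE; adjusted p = 0.0996), and its span overlaps other genes of the alpha protocadherin cluster on the same strand, so its reads are uncertain. Cyb561, an electron carrier of secretory vesicles, averaged 9.44 ± 0.719 FPKM in M-KO, 9.77 ± 0.619 in M-C57, 11.3 ± 0.902 in F-KO and 8.58 ± 0.461 in F-C57 (difference -0.41, adjusted p = 0.0996). Neither passed, and in both the female groups did not overlap.

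Hspb1, a small heat shock protein that keeps damaged proteins soluble, stood at 2.12, 2.97, 2.67, 2.79 and 1.97 FPKM in M-KO, against 2.84, 2.72, 3.23, 2.57 and 2.88 FPKM in M-C57. Among females it measured 4.79, 6.59, 5.37, 4.93 and 4.67 FPKM in F-KO, against 3.82, 3.86, 3.5, 2.9 and 2.34 FPKM in F-C57. The 5 F-KO libraries were all above the other 15, and the difference of -0.70 ± 0.15 did not pass (SE; adjusted p = 0.194). Hexim1, an inhibitor of the elongation factor P-TEFb, averaged 17.5 ± 0.91 FPKM in M-KO, 17.4 ± 0.369 in M-C57, 20.4 ± 1.36 in F-KO and 16.3 ± 0.926 in F-C57 (SD, n = 5 each; difference -0.30, adjusted p = 0.194). In both genes the male groups overlapped.

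No gene with a positive difference passed. The 8 with the smallest p were Rpa1, Mmp16, Kcnj2, Nup93, Cog5, Btbd3, Gphn and Hr, with adjusted p-values between 0.0677 and 0.237. Rpa1, a subunit of the complex that coats single-stranded DNA, stood at 11.7, 12.3, 11.7, 11.6 and 11.9 FPKM in M-KO, against 10.9, 11.7, 6.45, 13.3 and 12.3 FPKM in M-C57. The female groups stood at 6.49, 7.33, 6.55, 6.17 and 6.44 FPKM in F-KO, against 11.2, 11.3, 11.7, 11.9 and 11.4 FPKM in F-C57. It thus had a pair of levels: the 5 F-KO libraries and M-C57 replicate 3 were at 7.33 FPKM or less, and the other 14 were at 10.9 or more. The difference was 0.86 ± 0.16 (SE; adjusted p = 0.0677), and it passed without M-C57 replicate 3 (0.70) and without M-C57 replicate 4 (0.94).

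Kcnj2, the inward rectifier Kir2.1 that holds the resting potential, stood at 2.73, 3.02, 2.56, 2.54 and 2.98 FPKM in M-KO, against 2.66, 3.16, 2.95, 2.69 and 2.86 FPKM in M-C57. In females it was at 1.35, 1.96, 1.45, 1.91 and 1.32 FPKM in F-KO, against 3.1, 2.65, 3.44, 3.55 and 2.15 FPKM in F-C57. The male groups overlapped and every F-KO library was below the other 15 (difference 0.57 ± 0.13, SE; adjusted p = 0.196). It passed without F-C57 replicate 5 (0.65). Gphn, the scaffold gephyrin that anchors glycine and GABA-A receptors, stood at 19.8, 19.5, 19.4, 19 and 19.1 FPKM in M-KO, against 19.1, 19.5, 19.1, 19.3 and 19.7 FPKM in M-C57. Its female values were 18, 17.3, 17.3, 16.4 and 16.3 FPKM in F-KO, against 19.5, 19.5, 18.7, 19.1 and 19.4 FPKM in F-C57. The spread within each group was small, and F-KO lay below the other 15 libraries with a difference of 0.17 ± 0.04 (SE; adjusted p = 0.237).

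Btbd3, which in mouse cortex orients dendrites toward active inputs, averaged 52.3 ± 0.852 FPKM in M-KO, 53.5 ± 1.59 in M-C57, 44.2 ± 2.6 in F-KO and 54.6 ± 3.79 in F-C57 (SD, n = 5 each; difference 0.27, adjusted p = 0.196). Cog5, a part of a Golgi tethering complex, averaged 11.3 ± 0.316, 11 ± 0.392, 9.57 ± 0.129 and 11.2 ± 0.816 FPKM in M-KO, M-C57, F-KO and F-C57 (difference 0.24, adjusted p = 0.196). In both genes F-KO was below F-C57 without overlap. Mmp16, a membrane-bound matrix protease, had male groups that did not overlap. It averaged 3.74 ± 0.298 FPKM in M-KO, 3.15 ± 0.169 in M-C57, 2.81 ± 0.422 in F-KO and 3.56 ± 0.428 in F-C57 (difference 0.45, adjusted p = 0.196). Nup93, a scaffold of the nuclear pore, had a difference of 0.35 (adjusted p = 0.196) and Hr, the corepressor hairless, one of 0.46 (adjusted p = 0.237). Neither value passed.

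**Figure D3:**
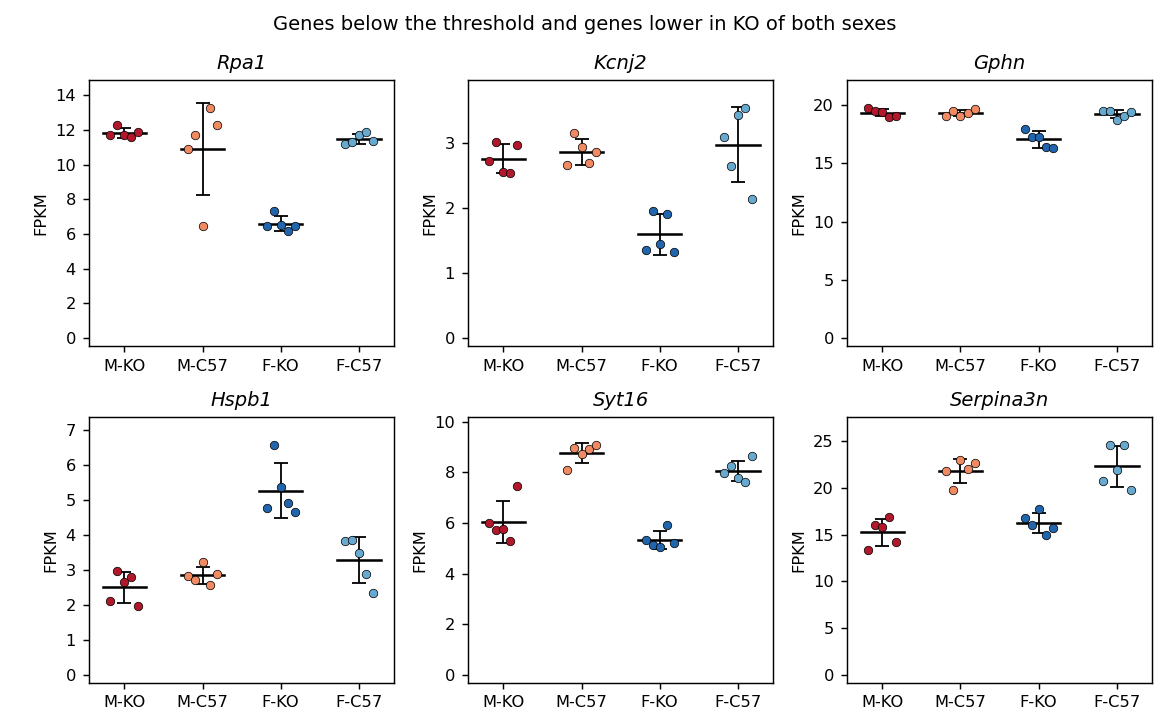
FPKM per library, by group (5 points each, mean as a line, SD as a bar), of 4 genes whose sex difference did not pass and of 2 genes lower in KO of both sexes. Rpa1, Kcnj2 and Gphn are lowest and Hspb1 is highest in F-KO, while Syt16 and Serpina3n are below C57 in both sexes.

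Besides these, 2 autosomal genes passed in males and in females with effects of like size. Serpina3n, a serpin that reactive astrocytes secrete, stood at 13.3, 16, 15.8, 16.9 and 14.2 FPKM in M-KO, against 21.8, 19.7, 22.9, 22 and 22.6 FPKM in M-C57. Female libraries had 16.8, 16, 17.7, 15 and 15.7 FPKM in F-KO, against 20.7, 24.5, 21.9, 24.6 and 19.8 FPKM in F-C57. KO was below C57 without overlap in each sex, and the difference was -0.06 ± 0.10 (SE; 95% interval -0.26 to 0.14; adjusted p = 0.872). Syt16, a synaptotagmin-like protein that lacks calcium binding, stood at 6.01, 5.71, 5.78, 5.29 and 7.46 FPKM in M-KO, against 8.1, 8.98, 8.74, 8.92 and 9.1 FPKM in M-C57. Among females it measured 5.35, 5.12, 5.04, 5.91 and 5.21 FPKM in F-KO, against 7.96, 8.27, 7.77, 7.64 and 8.64 FPKM in F-C57. KO was again below C57 in each sex without overlap, with a difference of 0.04 ± 0.09 (SE; 95% interval -0.14 to 0.23; adjusted p = 0.908).

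The paralogs of FMRP and its partners in the WAVE actin complex held differences close to 0. The difference was -0.08 ± 0.07 for Fxr1 (SE; 95% interval -0.22 to 0.05), 0.00 ± 0.06 for Fxr2 (-0.12 to 0.12), 0.11 ± 0.06 for Cyfip1 (-0.01 to 0.24) and 0.04 ± 0.04 for Cyfip2 (-0.06 to 0.13). Fxr2 averaged 22.4 ± 0.56 FPKM in M-KO, 21.8 ± 0.373 in M-C57, 22.8 ± 1.62 in F-KO and 22.2 ± 0.83 in F-C57 (SD, n = 5 each). Of 16 measured genes of the FMRP family and its granule partners, 0 had an unadjusted p under 0.05, and the median difference was 0.00.

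Over all autosomal genes the effect was wider in females. Its SD across genes was 0.12 in males and 0.15 in females, and 5 genes passed in males (0.0394%) against 427 in females (3.37%; 233 higher in F-KO, 1.84%, and 194 lower, 1.53%). The median SE of 0.07 is equal in the sexes by construction, because the fit pools the spread of all 4 groups. It does not show whether male and female libraries were equally noisy. The female count varied with the libraries that entered. It was 168 to 245 without F-C57 replicate 3, 4 or 5 or F-KO replicate 2, 3 or 5, 72 without the 4 high-Ttr libraries, 37 with Ttr and Prl as covariates and 7 without the 3 high-Prl libraries, which leaves 2 F-KO libraries. With equal sums over genes outside the mitochondrial genome, 113 were higher and 292 lower in F-KO. An unadjusted p under 0.05 for the difference was reached by 1275 genes (10.1%). Effects had opposite signs in 575 of the 707 with a negative difference (median effect -0.07 in males and 0.16 in females) and 477 of the 568 with a positive one (median 0.07 in males and -0.17 in females). Choosing genes by a large difference favours opposite signs, so these counts are no separate result. Of all autosomal genes 42.7% had opposite signs. The female effect was the greater in size in 69.6% of the 707 and in 75.0% of the 568, against 60.6% of all genes. Choosing genes by a large difference also favours the sex with the wider effects, so these shares are no separate result.

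Set against the other 15 libraries gene by gene, F-KO was the group that stood apart most often, as its place in the values of Foxo6, Hspb1, Kcnj2 and Gphn shows. All 5 F-KO libraries were above the other 15 in 147 autosomal genes (1.16%) and below them in 84 (0.663%). For M-KO the counts were 1 above (0.00789%) and 5 below (0.0394%). For M-C57, 21 genes were above (0.166%), Ckm, Atp2a1 and Myh4 among them, and 2 were below (0.0158%). F-C57 had 3 above (0.0237%) and 5 below (0.0394%). After removal of the GC trend the F-KO counts were 56 above and 40 below.

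The male and female effects share no library, so the female calls could be read in males. Of the 233 genes higher in F-KO, 173 (74.2%) were also above 0 in males, against 49.2% of all genes, with a median effect of 0.04 in males and 0.22 in females. Of the 194 lower in F-KO, 143 (73.7%) were below 0 in males, against 50.8% of all genes, with medians of -0.05 in males and -0.24 in females. After removal of the GC trend these shares were 77.8% of 99 higher and 72.9% of 129 lower genes. Across all 12679 genes the effects correlated at a Pearson r of 0.16. The genes are not independent replicates, and both effects can carry trends of depth and base composition.

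How finely the sexes could be compared is shown by the intervals. The median SE of the difference was 0.09 in log2. The 95% interval lay within 0.25 of 0 for 4753 genes (37.5%), within 0.5 for 10654 (84.0%) and within 1 for 12268 (96.8%). The log2(FPKM + 1) scale understates the change of low genes.

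Gene groups were described by counts, since 3 of their members passed in all, the muscle genes above. Heat shock proteins and the chaperones of the endoplasmic reticulum fold new and damaged proteins. Of 37 measured genes of this group, 32 were below 0, against 54.4% of all autosomal genes. At an unadjusted p under 0.05, 11 (29.7%) had a negative difference and 0 a positive one, against 5.58% and 4.48% of all autosomal genes. Their median was -0.11, with -0.03 in males and 0.09 in females. Dnajb1, an HSP40 cochaperone, averaged 11.7 ± 0.411 FPKM in M-KO, 11.9 ± 0.712 in M-C57, 14.1 ± 0.798 in F-KO and 11.6 ± 1.14 in F-C57 (difference -0.29, adjusted p = 0.269). Calr, the calcium-binding chaperone calreticulin, averaged 118 ± 2.17, 114 ± 5.56, 143 ± 5.86 and 121 ± 4.63 FPKM in M-KO, M-C57, F-KO and F-C57 (difference -0.19, adjusted p = 0.269). Pdia4, a disulfide isomerase, had a difference of -0.32 (adjusted p = 0.292). Neither these nor Hspb1 passed. The median of the list was -0.12 after removal of the GC trend, -0.20 without the high-Prl libraries and -0.19 with Ttr and Prl as covariates.

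Targets of the glucocorticoid receptor, which carries the stress hormone signal, had a median of -0.14 over 26 genes. Of these, 4 (15.4%) had a negative difference at an unadjusted p under 0.05 and 0 a positive one, against 5.58% and 4.48% of all genes. The median was -0.24 without the high-Ttr libraries and -0.08 without the high-Prl ones. Mfsd2a, which carries lipids across the endothelium of brain vessels, averaged 7.05 ± 1.09 FPKM in M-KO, 7.49 ± 0.218 in M-C57, 9.48 ± 1.81 in F-KO and 6.18 ± 0.836 in F-C57 (difference -0.62, adjusted p = 0.237). Slc2a1, the glucose transporter of those vessels, had -0.35 (adjusted p = 0.435), Nfkbia, an inhibitor of NF-kB, -0.36 and Errfi1, an inhibitor of the EGF receptor, -0.22. None passed.

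Immediate early genes, which neurons switch on with activity, had a median of -0.12 over 37 genes. Their differences were below 0 in 29, against 54.4% of all genes. The median was -0.08 without M-KO replicate 4 or F-C57 replicate 4, and also after removal of the GC trend. The phosphatase gene Dusp5 had -0.35 (adjusted p = 0.252), Fosl2, an AP-1 subunit, -0.34, Inhba, an activin subunit, -0.22 and Ptgs2, the inducible cyclooxygenase, 0.24, and none passed. At an unadjusted p under 0.05, 6 (16.2%) were negative and 3 (8.11%) positive, against 5.58% and 4.48% of all genes. Of 22 measured steroid hormone receptors and enzymes, 3 were negative (13.6%) and 1 positive (4.55%) at that level, against the same shares of all genes. Esrra, an orphan receptor that drives mitochondrial genes, averaged 8.86 ± 0.317 FPKM in M-KO, 8.46 ± 0.694 in M-C57, 12 ± 0.643 in F-KO and 8.84 ± 0.724 in F-C57 (difference -0.34, adjusted p = 0.196). The corepressor gene Ncor1 had 0.16, Pgrmc2, a haem-binding membrane protein, -0.14 and Srd5a1, which reduces testosterone and progesterone, -0.27. The set holds no gene past the threshold.

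Voltage-gated and related channels set the excitability of neurons. Of 54 measured genes, 8 (14.8%) had a positive difference at an unadjusted p under 0.05 and 0 a negative one, against 4.48% and 5.58% of all genes (median 0.03, with -0.01 in males and -0.05 in females). Without single libraries the median ran between 0.01 and 0.04. Kcna4, an A-type potassium channel, averaged 7.32 ± 0.376 FPKM in M-KO, 8 ± 0.872 in M-C57, 5.9 ± 0.559 in F-KO and 8.45 ± 0.77 in F-C57 (difference 0.35, adjusted p = 0.292). Cacna1e, the pore of R-type calcium channels, had 0.22 (adjusted p = 0.31) and Scn3a, a sodium channel, 0.16 (adjusted p = 0.328). With Kcnj2 these were the 4 smallest p-values of the list, and none passed.

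Synaptic mRNAs bound by FMRP had a median of 0.05 over 54 genes (0.03 without M-C57 replicate 4 or F-C57 replicate 1). Of these, 14 were below 0, against 54.4% of all genes. At an unadjusted p under 0.05, 4 were positive (7.41%) and 1 negative (1.85%), against 4.48% and 5.58% of all genes. The NMDA receptor subunit gene Grin2b had 0.19 (adjusted p = 0.406), Pclo, a scaffold of the presynaptic active zone, 0.30 and Nlgn2, the neuroligin of inhibitory synapses, -0.25. Of 46 excitatory synapse genes 4 were positive (8.70%) and 1 negative (2.17%), and the negative one was the scaffold gene Homer1 (-0.47). The glutamate receptor genes Grm7 (0.14) and Grik2 (0.19) were among the positive ones. Of 24 GABA synapse genes 3 were positive (12.5%) and 4 negative (16.7%), among them Gphn and Gabra2, a receptor subunit (-0.26). None of these passed.

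Of 40 presynaptic vesicle genes 3 were positive (7.5%) and 3 negative (7.5%) at an unadjusted p under 0.05, against 4.48% and 5.58% of all genes. The list was led by the complexin gene Cplx1 (-0.19), the synaptotagmin gene Syt11 (-0.11) and Rab3a, a small GTPase of vesicles (-0.15). Of 53 genes of actin and dendritic spines, which the series title names, 2 were positive (3.77%) and 1 negative (1.89%). Myo6, a motor that walks toward actin minus ends, averaged 11.8 ± 2.03 FPKM in M-KO, 10.8 ± 2.35 in M-C57, 7.22 ± 0.51 in F-KO and 11.7 ± 2.62 in F-C57 (difference 0.73, adjusted p = 0.321). Abi2, a WAVE complex subunit, had 0.73 (adjusted p = 0.353). Of 35 genes of mTOR and translation 2 were negative (5.71%), led by the kinase gene Mknk2 (-0.30), and 1 was positive (2.86%). Ribosomal protein genes (77), nuclear genes of oxidative phosphorylation (82) and proteasome subunits (35) had medians of -0.01, -0.04 and -0.01. In these lists too 0 genes passed.

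Among regional markers, all 12 measured markers of dentate granule cells had a difference of 0 or above (median 0.25, with -0.02 in males and -0.21 in females), and 5 (41.7%) had an unadjusted p under 0.05. Of all genes 54.4% were below 0, and 4.48% were positive at that level. Tdo2, which opens the tryptophan ring, averaged 2.26 ± 0.183 FPKM in M-KO, 2.28 ± 0.194 in M-C57, 1.65 ± 0.199 in F-KO and 2.3 ± 0.274 in F-C57 (difference 0.31, adjusted p = 0.31). Prox1, the transcription factor that sets granule cell identity, averaged 17.6 ± 0.566, 16.9 ± 1.18, 14.4 ± 1.93 and 16.9 ± 1.83 FPKM in M-KO, M-C57, F-KO and F-C57 (difference 0.28, adjusted p = 0.435). The summed level of the 12 ran from 174 to 185 FPKM in M-KO, 172 to 185 in M-C57, 145 to 181 in F-KO and 179.8 to 203 in F-C57, so the F-KO libraries spread the widest. The median was 0.13 without the high-Ttr libraries and 0.11 with Ttr and Prl as covariates.

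All 9 markers of CA1 pyramidal cells were below 0, against 54.4% of all genes (median -0.23, with -0.15 in males and 0.15 in females). Of these, 3 (33.3%) had an unadjusted p under 0.05, against 5.58% of all genes. Pou3f1, a POU transcription factor, averaged 15.2 ± 0.506 FPKM in M-KO, 17.5 ± 2.27 in M-C57, 17.3 ± 0.784 in F-KO and 15.5 ± 1.33 in F-C57 (difference -0.33, adjusted p = 0.321). Fibcd1, a receptor of acetylated sugars, had -0.23 (adjusted p = 0.376). The 14 markers of CA3 and CA2 cells had a median of 0.08, which ran between 0.02 and 0.12 without single libraries and was 0.01 without the high-Prl libraries. No regional marker passed. The proportion of each field in the dissected tissue was not tested.

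**Figure D4:**
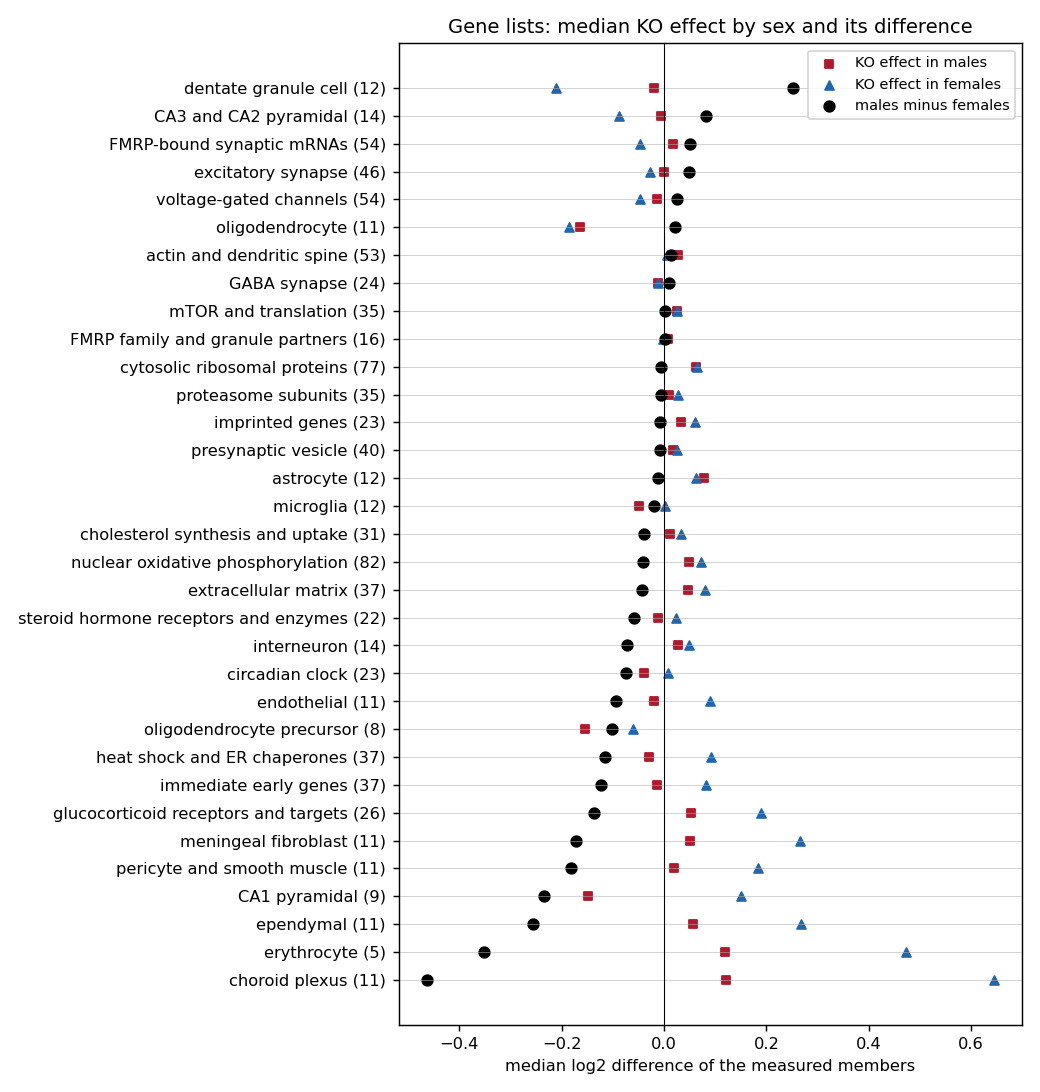
Median effect of Fmr1 loss over the measured members of each gene list with 5 or more of them, skeletal muscle left out (number in brackets), in log2(FPKM + 1): squares for males, triangles for females and circles for males minus females. Dentate granule cell markers are at the top (0.25), choroid plexus (-0.46) at the bottom, and most synaptic lists lie within 0.05 of 0.

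Markers of choroid plexus, ependyma, erythrocytes and pituitary had negative medians. All 11 measured choroid plexus markers were below 0 (median -0.46), against 54.4% of all genes, and 0 had an unadjusted p under 0.05. Their summed level ran from 45.3 to 695 FPKM in M-KO, 49.9 to 217 in M-C57, 66.9 to 1692 in F-KO and 37.7 to 1044 in F-C57. With Ttr and Prl as covariates the median was 0.00, but Ttr is itself a member of this list. That fit sets the difference of Ttr to 0 by construction, so its median cannot be read as a result. Without F-KO replicate 5 the median was -0.14, without F-KO replicate 4 -0.25, without M-KO replicate 2 -0.76 and without F-C57 replicate 4 -0.80. All 11 ependymal markers (median -0.26) and all 5 erythrocyte genes (-0.35) were also below 0 without a member past an unadjusted p of 0.05. The ependymal median was -0.13 without M-KO replicate 1, -0.11 without F-C57 replicate 5 and -0.40 without the high-Ttr libraries, and the erythrocyte median was -0.20 without the high-Prl libraries. The 3 pituitary markers Gh, Pomc and Prl summed to at most 0.751 FPKM in M-KO and 1.41 in M-C57, to between 0.508 and 129 in F-KO and to at most 4.52 in F-C57. Prl was under the expression filter. The median difference over the 3 tested markers, Pomc, Gh and Chgb, was -1.23, and -0.02 without the high-Prl libraries. Chgb, left out of the sums, averaged 249 FPKM in M-KO, 272 in M-C57, 227 in F-KO and 256 in F-C57. The part of these tissues in the differences above was not tested. Without the 4 high-Ttr libraries 8 genes passed, among them Ckm, Atp2a1 and Myh4 but not Foxo6, and without the 3 high-Prl libraries 2 did.

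The 11 oligodendrocyte markers had a median difference of 0.02, with -0.16 in males and -0.19 in females and 0 with an unadjusted p under 0.05. Their median was -0.18 without the high-Ttr libraries and between -0.07 and 0.14 without single libraries. Astrocyte markers had -0.01 over 12 genes and microglial markers -0.02 over 12. Of 14 interneuron markers 3 were negative (21.4%) and 1 positive (7.14%) at an unadjusted p under 0.05, against 5.58% and 4.48% of all genes. Vip, the vasoactive peptide, had -0.25, the somatostatin gene Sst -0.23, Cck, cholecystokinin, -0.24 and Reln, the secreted glycoprotein reelin, 0.22. None passed.

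The sex difference followed the GC content of the transcripts. Its median fell by decile of GC content, at 0.03 in the lowest and -0.08 in the highest. In males the medians ran between -0.01 and 0.01, and in females they were -0.05 in the lowest and 0.08 in the highest decile. The slope of expression on GC content, in log2 per 10% of GC, was -0.0669 to 0.00678 in M-KO, -0.0951 to 0.0103 in M-C57, 0.0618 to 0.0759 in F-KO and -0.0279 to 0.0311 in F-C57. The F-KO libraries thus stood apart from the other 15. Genes with a negative difference at an unadjusted p under 0.05 had a median GC content of 53.4%, and those with a positive one 46.2%. After removal of the trend 3 genes passed, Ckm, Atp2a1 and Myh4, and 1186 (9.36%) had an unadjusted p under 0.05. Whether the trend arose in the tissue or in the libraries cannot be told apart, because it coincides with the F-KO group.

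**Figure D5:**
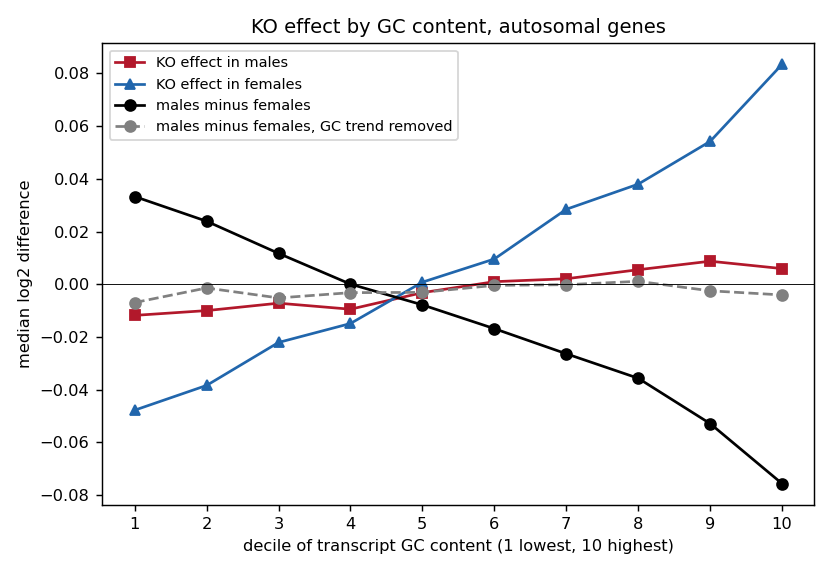
Median effect of Fmr1 loss in 10 classes of transcript GC content (1 lowest, 10 highest; 1266 or 1267 autosomal genes each), in log2(FPKM + 1). The female line (triangles) climbs to 0.08, the male line (squares) stays between -0.01 and 0.01, and males minus females (black circles) goes down to -0.08 but stays within 0.01 of 0 once the GC trend is removed (grey, dashed).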

How the data were processed

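Hippocampal RNA of 20 libraries was deposited as FPKM per gene, computed by the authors per the file headers. Per the submitters' processing notes, the tools were FastQC, HISAT2 and StringTie (no versions) and the build was mm10. The sources used here do not state annotation, trimming or strand setting. Depth per library is unknown, so no counting interval was computed.

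Genes at 0.5 FPKM or more in at least 5 libraries (13174) were fitted as log2(FPKM + 1) in limma-trend (limma 3.58.1 under R 4.3.3), 1 mean per group. P-values were adjusted by Benjamini-Hochberg over all 13174 genes, with a threshold of 0.05, and autosomal results are reported. The fit was tested on simulated data. GC content and overlaps came from GENCODE M21, and promoters from RefSeq.

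Named genes are autosomal calls whose symbol is no placeholder and that average 1 FPKM or more in some group, the 8 smallest p per direction where fewer than 5 passed, genes past the threshold in both sexes, Fxr1, Fxr2, Cyfip1 and Cyfip2, and up to 4 members per list. Other names are marked. The contrast, gene lists and rules were chosen with earlier results of these data known.

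Alternatives were 3 rescalings, 2 filters, another pseudocount, robust variance, library weights, a replicate block, autosomal genes only, GC trend removal (loess, span 0.5) and leaving out each library. Added after seeing the data were fits without high-Ttr or high-Prl libraries and with both genes as covariates, and GC removal and size factors for counts of groups that stand apart.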

Additional observations from a re-analysis of the deposited data

Results flagged for a closer look

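In 6 autosomal genes the effect of Fmr1 loss differed between the sexes by the limma test of that difference (males minus females, log2): Atp2a1 (-0.85), Myh4 (-0.78), Ckm (-0.76), Foxo6 (-0.66), Fbxl14 (-0.31) and Emc1 (-0.24). Their values by library and their adjusted p-values are given above.

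Among 128 groups of 5 libraries of the genes shown by library, 8 held a library far from the other 4, by Dixon's ratio above 0.71. Chance gives such a library in about 1 of 20 groups. Ttr was high in 1 M-KO library (583 FPKM) and in 1 F-C57 library (878 FPKM). Prl was above the others in 1 M-C57 library (0.0833 FPKM) and in 1 F-C57 library (1.68 FPKM). Of the muscle genes, Ckm was above 0 in 1 F-KO library (0.0290 FPKM), Myh4 was lowest in 1 F-C57 library (0.0260 FPKM) and Tnnc2 was listed at 0 in 1 F-KO library. Nup93 was highest in 1 M-C57 library (4.70 FPKM).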

How the results depend on the processing

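Depth is unknown and group size is 5, so small sex differences and low genes are the least certain. Of the 6 autosomal genes whose effect differed between the sexes, Ckm and Atp2a1 passed in all 33 alternative fits they entered and Myh4 in 32 of 33, all but the fit without the high-Prl libraries. All 3 met the expression filter through the 5 M-C57 libraries alone. Fits without single libraries kept the genes filtered on all 20 libraries, so these passes do not test the filter. These 3 are removed by a filter of 2 FPKM, under which 0 genes passed (limma; 1064 at an unadjusted p under 0.05) and Foxo6 had an adjusted p of 0.0659. Foxo6 passed in 18 of 34 alternatives, and Fbxl14 and Emc1 in 6 of 34 each. The count was 3 after GC trend removal, 3 with the Ttr and Prl levels as covariates, 2 if the high-Prl libraries were left out, 8 without the high-Ttr libraries, and 4 to 8 under the remaining settings for scaling, filter, pseudocount and spread. Leaving out single libraries gave 3 to 7. It was 3 without M-KO replicate 1, 2, 3 or 5, M-C57 replicate 5, F-KO replicate 1, 4 or 5, or F-C57 replicate 3. In males alone, 5 genes passed, with 2 under the filter of 2 FPKM, 8 with library weights, 10 without the high-Ttr libraries and 5 to 10 without single libraries. The highest of these came without M-C57 replicate 2 (10), M-C57 replicate 3 (9, of which 2 higher) or F-C57 replicate 4 (9). In females alone, 427 passed, with 228 after GC trend removal, 72 without the high-Ttr libraries, 7 without the high-Prl libraries, 37 with the covariates and 168 to 507 without single libraries. The lowest counts came without F-C57 replicate 4 (168), 3 (202) or 5 (209) and without F-KO replicate 3 (171), 2 (200) or 5 (245). The share of female calls that were higher in F-KO was 54.6%, against 43.2% with upper-quartile rescaling, 27.9% with equal sums over genes outside the mitochondrial genome and 43.4% after GC trend removal. The replicate block left 3 genes for the sex difference, 7 in males and 307 in females. Same-numbered libraries share only a number: of 30 same-numbered pairs, 0 had deviations correlated above 0.1 (-0.105 to 0.0651), and 1 of 20 libraries correlated best with its own number. No reported value changed sign past the threshold. For values that moved, the cause was not tested.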

Other observations

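Of the genes in which a whole group stood apart from the other 15 libraries, the 1 above in M-KO was Fam206a, and the 5 below were Gabra2, Cxxc5, Acot1, Fam20c and Stk33. The collagen gene Col1a1 was 1 of the 2 below in M-C57, and it was also among those above in F-KO. In F-KO the genes above included the metallothionein gene Mt3 and the respiratory chain gene Cyc1, and those below included the transcription factor gene Neurod6, the calcium pump gene Atp2b1 and the oligodendrocyte gene Opalin. These names were chosen after their values were seen. With median-ratio size factors F-KO was above in 135 genes and below in 95.

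Rpa1 is one of 196 autosomal genes (1.55%) with a gap between neighbouring libraries wider than 50% of the range. Genes whose widest gap set a single library apart were not counted. Of the 1275 genes with an unadjusted p under 0.05 for the sex difference, 22 (1.73%) had such a gap.

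On the X chromosome, the smallest p of the sex difference was that of Tmsb15b2, a thymosin gene (0.51, adjusted p = 0.214). The imprinted gene Nnat averaged 36.3 ± 1.88 FPKM in M-KO, 33.2 ± 5.61 in M-C57, 57 ± 6.07 in F-KO and 37.6 ± 6.2 in F-C57 (SD, n = 5 each; difference -0.46, adjusted p = 0.378).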
